A study of Mus musculus with 15 samples.

Results

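A set of 10 genes of the serine protease inhibitor A cluster, Serpina1a, Serpina1b, Serpina1c, Serpina1d, Serpina1e, Serpina3k, Serpina3m, Serpina4-ps1, Serpina6 and Serpina12, were followed in mouse liver RNA. They were chosen by name, and all 10 were found among the 54281 gene IDs of the deposited table, which holds 29 genes named Serpina. RNA sequencing was done on livers of 15 male C57BL6J mice of 9.5 months, with 1 library per animal, so that cells of all liver types were measured together. The chow MCOPPB group (n = 5) received the compound MCOPPB, an agonist of the nociceptin receptor that the series title calls a senolytic, at 5 mg/kg by intraperitoneal injection. It was given on 5 days in a row followed by 2 days without drug, for 3 cycles or 21 days in all. The chow saline group (n = 3) received saline on chow. The DEN/HFD MCOPPB group (n = 3) received the same MCOPPB course, and the DEN/HFD saline group (n = 4) received saline. Animals of both DEN/HFD groups had been injected at 2 weeks of age with 25 mg/kg of the liver carcinogen diethylnitrosamine (DEN) and later kept for 32 weeks on a high fat diet with 60% of energy from lard. Animals of both chow groups had received the vehicle of DEN and stayed on chow, so DEN and diet cannot be told apart.

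Serpins are bait-and-trap inhibitors. A protease cuts an exposed stretch of the serpin, the reactive centre loop, and the serpin then changes shape and locks the protease in an inactive complex. The sequence of that loop sets which proteases are caught. Hepatocytes are the main source of alpha-1-antitrypsin, the plasma inhibitor of neutrophil elastase, which humans make from a single gene and mice from several near-identical Serpina1 paralogs. The mouse Serpina3 genes, to which Serpina3k and Serpina3m belong, are a family related to human alpha-1-antichymotrypsin. Serpina6 encodes corticosteroid-binding globulin, the carrier of glucocorticoids in blood, which keeps the serpin fold but does not act as a protease inhibitor. Serpina12 encodes vaspin, an inhibitor of kallikrein 7 first studied as a product of visceral fat. Serpina4-ps1 is annotated as an unprocessed pseudogene.

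The 10 genes lie on mouse chromosome 12 between 103646630 and 104394257 (GRCm38, GENCODE M21), a span of 748 kb in which all 21 protein-coding genes are Serpina genes. From Serpina6 to Serpina12, 7 of the 10 read from the minus strand, in the order Serpina6 (103646630 to 103657212), Serpina1b (103728156 to 103830373), Serpina1d (103763594 to 103773592), Serpina1a (103853589 to 103863562), Serpina1c (103894926 to 103904887), Serpina1e (103946931 to 103958975) and Serpina12 (104028769 to 104044443). Serpina4-ps1 (104080649 to 104086724), Serpina3k (104338486 to 104346144) and Serpina3m (104338486 to 104394257) read from the plus strand. The annotated Serpina1b contains Serpina1d on the same strand, and Serpina3m is annotated from the start of Serpina3k, so the annotated spans of these pairs overlap.

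By estimate, the shallowest library held 9.32M assigned reads, the deepest 18.7M and the median 15M, where M is 1e+06 reads, and 13863 to 16675 genes lay above the lowest value. Mitochondrial transcripts took 12% to 31.0% of normalized counts. The labels give 2 RNA integrity numbers (RIN) for each library. The first was 9.9 to 10 in chow MCOPPB and 9 to 9.7 in chow saline, without overlap, and the second was 8.9 to 9.6 in chow MCOPPB and 8.9 to 9.1 in chow saline. The summed level of 7 Kupffer cell markers was 1428 to 2580 normalized counts in chow MCOPPB and 733 to 1038 in chow saline, also without overlap. All 7 had positive MCOPPB differences on chow, 5 with an unadjusted limma p under 0.05, which 9.06% of all genes had, and none was called. The part of these cells in the results was not tested, and RIN was tried as a covariate. Of 8 hepatocyte markers 7 were matched in the table, and their summed levels overlapped between all groups. DEN/HFD saline 4 stood apart for the Serpina1 genes. It had the most normalized counts of Serpina1a, Serpina1b, Serpina1c, Serpina1d and Serpina1e among all 15 livers. As a share of all normalized counts of the library, Serpina1b and Serpina1d were higher in chow MCOPPB 2 (0.825% and 0.540%) than in DEN/HFD saline 4 (0.794% and 0.538%).

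Levels are given as normalized counts, obtained by inverting the deposited log2 values. Differences are given on the deposited log2 scale, as MCOPPB minus saline or DEN/HFD minus chow, with the standard error (SE) of limma. A gene was called at a limma adjusted p under 0.05 over all 11568 genes kept by a filter on low values. All 10 genes were kept, but Serpina4-ps1 passed only through saline livers, where it was high, so it had to differ to be tested and its calls are given as a description.

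Per kilobase of exon, and as medians over the 15 livers, Serpina1c was the most abundant with 76719 normalized counts per kb. Serpina1b (33995), Serpina1a (32724) and Serpina1d (32267) followed, and their ranges overlapped. Serpina3k stood at 17521 normalized counts per kb and Serpina6 at 3260. Serpina1e (1015) and Serpina3m (839) came next, with overlapping ranges, and Serpina12 (108) and Serpina4-ps1 (4.94) were lowest. As groups of livers differ for some of these genes, this order holds for the medians only. The 5 Serpina1 genes together took 1.29% to 4.27% of all normalized counts of a library. Plotting each library's level by group sets out all 10 genes.

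**Figure D1:**
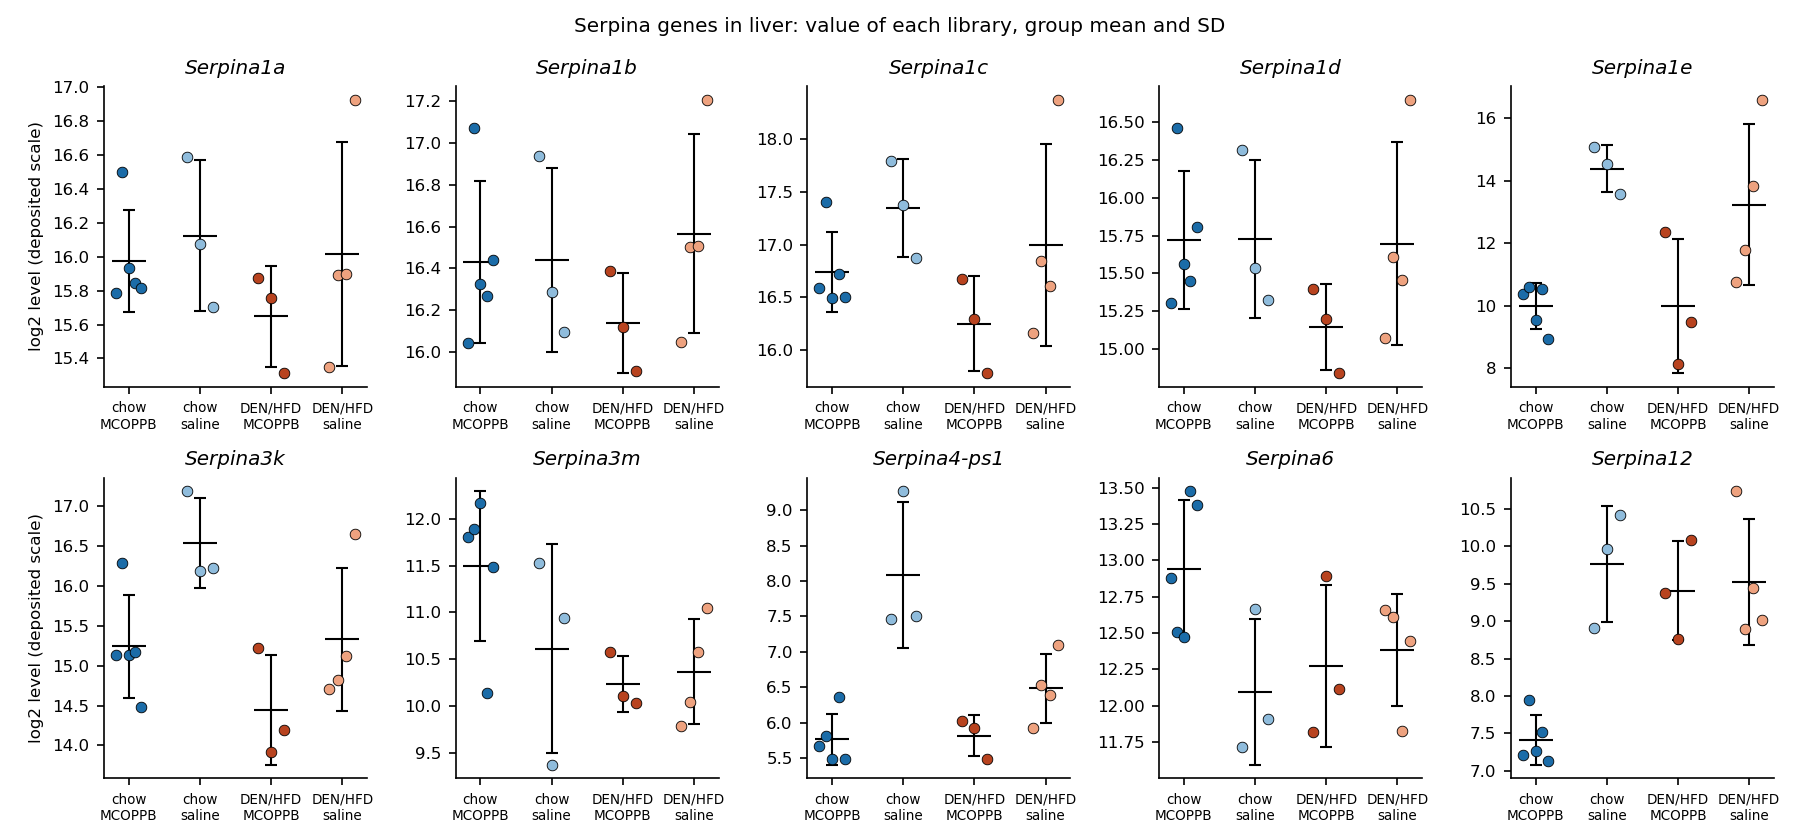
Deposited log2 level (vertical axis, log2 scale, own range in each panel) of each of the 10 Serpina genes by group. Points are libraries, dashes group means and bars SD. Serpina12 separated chow MCOPPB from the other groups, Serpina1e and Serpina4-ps1 were lower in chow MCOPPB than in chow saline without overlap, and DEN/HFD saline 4 was the highest point for Serpina1a to Serpina1e.

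With MCOPPB on chow, Serpina12 fell and was called, 1 of the 9 genes other than Serpina4-ps1, where 0.32% of all 11568 genes tested were called (0.164% of all genes as lower). Serpina4-ps1 was also called lower. Serpina1e had the largest log2 difference of the 10 on the deposited scale but was not called. Of the 10 differences 8 were negative, with a median of -0.38, beside a median of 0.00 over all genes tested, but those of Serpina1a, Serpina1b and Serpina1d were positive under quantile normalization. Of the 9 genes other than Serpina4-ps1, Serpina1e and Serpina12 had no overlap between the groups and were lower with MCOPPB, as was Serpina4-ps1. Groups did not overlap for 4.77% of all genes in either direction and for 2.14% in the lower direction.

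Serpina1e, a mouse paralog of alpha-1-antitrypsin, had 1255, 1477, 659, 1383 and 402 normalized counts in the chow MCOPPB livers, against 34150.4, 23316 and 12048 in the chow saline livers. Every chow MCOPPB liver was far under every chow saline liver. The means were 1035 ± 476 (SD, n = 5) with MCOPPB and 23171 ± 11052 (n = 3) with saline, which puts the saline mean 22.4-fold above the MCOPPB mean. The log2 difference was -4.38 ± 1.01, the second largest in size among the 11568 genes, with a limma adjusted p of 0.088. Serpina1e ranked 9th of 11568 genes by its spread between livers of the same group (SD of 1.71 on the log2 scale, beside a median of 0.30 over all genes). The spread was wider in the DEN/HFD livers (SD 2.14 with MCOPPB and 2.57 with saline) than in the chow livers (0.73 and 0.76), and limma uses all of them. With the chow groups alone the difference was the same and the adjusted p was 0.000265, and without DEN/HFD saline 4 it was 0.00898. It also fell under 0.05 without DEN/HFD MCOPPB 1 (0.0476) or DEN/HFD saline 1 (0.0485), and was 0.288 and 0.354 with the first and second RIN value as a covariate.

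Under DEN/HFD the same gene again had its lowest values with MCOPPB, but with overlap. Serpina1e had 5129.8, 203 and 626 normalized counts in the DEN/HFD MCOPPB livers, against 1642, 3396, 14389.8 and 97923 in the DEN/HFD saline livers. DEN/HFD MCOPPB 1 lay above the 2 lower saline livers, and the saline livers spanned a wider range than any other group. The log2 difference was -3.24 ± 1.05 and was not called (limma adjusted p = 0.738). Without DEN/HFD saline 4 it was -2.12 and without DEN/HFD MCOPPB 1 it was -4.41, neither of them called. The MCOPPB differences in the chow and DEN/HFD livers were not shown to differ (difference 1.15, 95% interval -1.92 to 4.21, limma adjusted p = 0.915). A fit of 1 MCOPPB effect common to chow and DEN/HFD, with diet as an additive term, gave Serpina1e a difference of -3.83 ± 0.72 and called it lower (limma adjusted p = 0.0194). It was the only 1 called of the 9 genes other than Serpina4-ps1, where 0.372% of all genes were called and 0.233% were called lower. The Serpina1e call in the common fit was lost when either RIN value was added as a covariate (limma adjusted p = 0.320 and 0.458) and without chow saline 1 (0.0626), chow saline 2 (0.0708), DEN/HFD MCOPPB 2 (0.0688) or DEN/HFD MCOPPB 3 (0.0561). It was also lost without the filter (0.0577) and with the replicate block (0.054). The summed Serpina1 genes gave -0.47 (limma adjusted p = 0.851), but Serpina1e was only 0.0828% to 12% of that sum. The sum therefore cannot test the Serpina1e call.

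**Figure D2:**
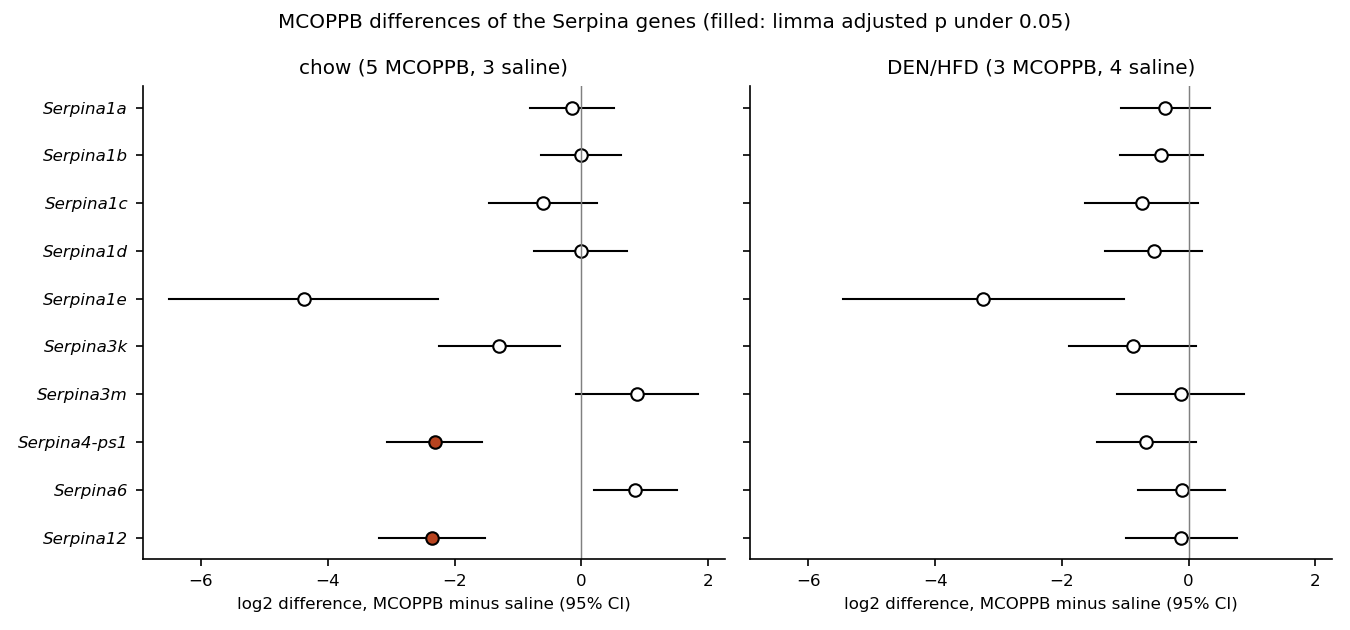
Log2 difference between MCOPPB and saline livers (horizontal axis, deposited log2 scale, 95% confidence interval) of the 10 Serpina genes on chow (left) and under DEN/HFD (right). Filled points were called by limma; these were Serpina4-ps1 and Serpina12 on chow, and no gene under DEN/HFD.

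The other 4 Serpina1 genes showed no such gap on chow. Serpina1a (-0.15 ± 0.32), Serpina1b (-0.01 ± 0.30) and Serpina1d (-0.01 ± 0.35) had differences near 0, which turned positive under quantile normalization, and Serpina1c had -0.60 ± 0.41. Serpina1c had 98316, 172776, 92040.0, 108355 and 92717 normalized counts in the chow MCOPPB livers, against 226743, 169446 and 119932 in the chow saline livers, and the groups overlapped. None of the 4 was called. The 95% interval of the Serpina1b difference ran from -0.64 to 0.62, which leaves room for changes of that size. The summed Serpina1a to Serpina1e level differed by -0.34 ± 0.38 on chow (limma adjusted p = 0.834) and by -0.61 ± 0.39 under DEN/HFD (adjusted p = 1.00).

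The makeup of the summed Serpina1 transcripts was also compared. Serpina1e made up 0.136% to 0.476% of them in chow MCOPPB and 4.07% to 6.03% in chow saline. Under DEN/HFD its share was 0.0828%, 0.333% and 1.72% in MCOPPB livers and 0.751% to 12% in saline livers, with 1.72% lying inside the saline range. On chow the shares of the other paralogs did not overlap either. Serpina1c took 31.2% to 37.3% with MCOPPB and 40.0% to 43.6% with saline. Serpina1b took 25.5% to 29.9% with MCOPPB and 20.5% to 23.6% with saline, Serpina1d took 15.3% to 19.3% and 12.2% to 14.4%, and Serpina1a took 18.7% to 21.9% and 17.4% to 18%, each with MCOPPB named first. Shares of 1 sum are tied to each other, and no test was made on them. Those of Serpina1a and Serpina1c depend most on how reads that match several paralogs were counted.

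**Figure D3:**
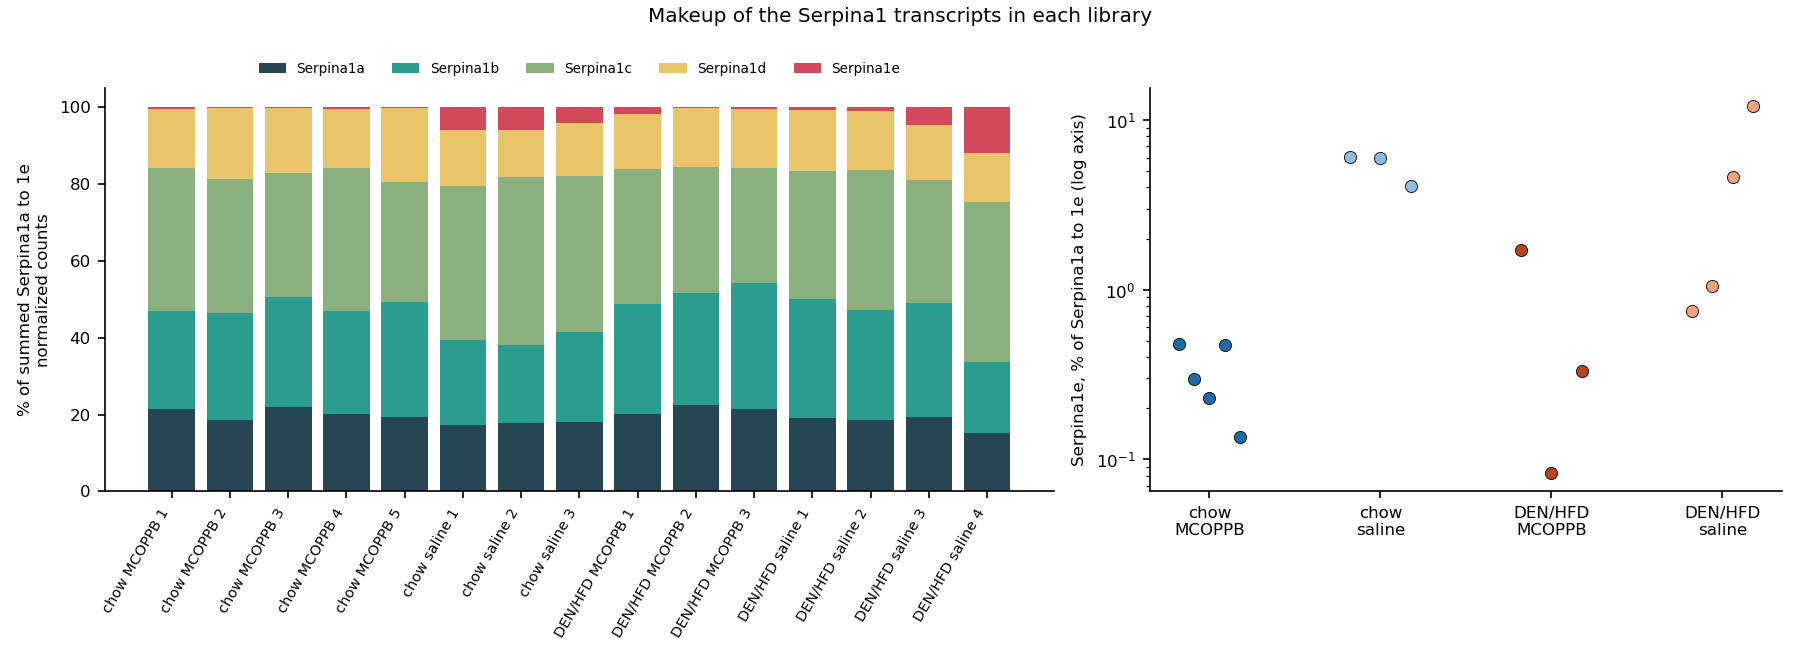
Left, stacked bars of the share of each Serpina1 paralog (% of the summed normalized counts of Serpina1a to Serpina1e) in each of the 15 libraries. Right, the Serpina1e share by group on a log axis, with 1 point per library. The 5 chow MCOPPB livers lie at 0.136% to 0.476% and the 3 chow saline livers at 4.07% to 6.03%.

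How far these paralogs can be told apart depends on their sequences. The coding sequences of Serpina1a to Serpina1e were 96.3% to 98.5% identical in pairwise alignment. Of all 75-base windows of their annotated transcripts, the length of 1 read, 80.3% were found in no other gene for Serpina1e, 81.0% for Serpina1b, 62.9% for Serpina1d, 50.7% for Serpina1a and 26.4% for Serpina1c. Serpina1c shared 62.9% of its windows with Serpina1a. How reads that match several genes were counted is not given in the sources used here, so the values of Serpina1a and Serpina1c are the least certain of the 5. The 75 coding bases from the loop's hinge onward, as long as 1 read, are shown from GENCODE M21 transcripts on the minus strand of chromosome 12 (GRCm38) because they carry the bait and differ between the paralogs; capitals mark bases that differ from Serpina1a.
Serpina1a (chr12:103853756-103853830): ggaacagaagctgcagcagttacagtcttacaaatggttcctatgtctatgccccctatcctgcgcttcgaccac
Serpina1b (chr12:103728323-103728397): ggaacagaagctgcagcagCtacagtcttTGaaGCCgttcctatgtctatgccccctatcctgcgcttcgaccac
Serpina1c (chr12:103895093-103895167): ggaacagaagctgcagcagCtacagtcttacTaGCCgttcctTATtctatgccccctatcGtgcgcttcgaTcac
Serpina1d (chr12:103763761-103763835): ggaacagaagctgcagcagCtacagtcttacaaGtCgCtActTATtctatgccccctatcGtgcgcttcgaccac
Serpina1e (chr12:103947099-103947173): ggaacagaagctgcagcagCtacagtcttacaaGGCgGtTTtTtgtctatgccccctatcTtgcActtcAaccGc
Serpina1e differed from Serpina1a at 12 of these bases, Serpina1c at 10, Serpina1d at 9 and Serpina1b at 6.

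The promoters of these paralogs were much alike where they aligned. RefSeq windows from 250 bases before to 50 after the annotated start (GRCm38.p6) were matched for 6 of the 10 genes, Serpina1a to Serpina1e and Serpina12. The 250 bases before the start were aligned in pairs for the 5 paralogs, and 92.1% to 98.0% of the aligned bases were identical. Pairs among Serpina1a to Serpina1d aligned over 238 to 248 bases. Pairs with Serpina1e aligned over only 188 to 199, and the unaligned bases are not in the percentages. The annotated start of Serpina1e lay 62 bases past a run shared by all 5 paralogs, against 0 to 11 bases in the others. Its window is thus shifted, and the shorter aligned lengths match that shift. They are no measure of how far the Serpina1e promoter differs. In these pairs 95.5% to 98.0% of the aligned bases were identical. Stretches of 75 bases are shown on the minus strand of chromosome 12, because Serpina1e had a wide gap on chow. Its neighbours, whose promoters were alike where they aligned, did not. Each ends with the longest run of bases, 55, that all 5 windows shared before the annotated start, and capitals mark bases that differ from Serpina1e.
Serpina1b (chr12:103738200-103738274): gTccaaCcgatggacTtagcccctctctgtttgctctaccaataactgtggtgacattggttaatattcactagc
Serpina1d (chr12:103773634-103773708): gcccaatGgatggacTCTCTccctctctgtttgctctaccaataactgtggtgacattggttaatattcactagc
Serpina1a (chr12:103863625-103863699): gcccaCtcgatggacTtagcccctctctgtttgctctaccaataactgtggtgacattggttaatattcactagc
Serpina1c (chr12:103904962-103905036): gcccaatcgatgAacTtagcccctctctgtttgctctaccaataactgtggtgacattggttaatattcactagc
Serpina1e (chr12:103956960-103957034): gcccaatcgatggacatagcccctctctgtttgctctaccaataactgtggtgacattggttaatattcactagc
Compared with Serpina1e, the stretch differed at 2 bases in Serpina1a, 2 in Serpina1c, 3 in Serpina1b and 6 in Serpina1d. The 55 shared bases match by the choice of the stretch, so only the bases before them could differ. These counts are therefore no measure of how alike the promoters are. Between the end of the stretch and the RefSeq start lay 0 to 11 bases in Serpina1a to Serpina1d and 62 bases in Serpina1e. The stretches of Serpina1b and Serpina1e lie inside the GENCODE spans given above, which begin farther upstream than the RefSeq starts. Motifs were searched on both strands and none of them contains another. TTGCNNAA (C/EBP) was in 5 of the 6 windows and in 10.8% of 32851 RefSeq promoters of the same length, and ATTGAT (HNF6) in 3 of 6 and in 7.54%. TTCNNNGAA (STAT5) was in 0 of 6 and in 8.3%, CAAAGTCCA (HNF4) in 0 of 6 and in 0.475%, and TTACGTAA (PAR bZIP) in 0 of 6 and in 0.119%. Serpina1b, Serpina1d and Serpina1e held both motifs, with C/EBP at -161, -149 and -211 and HNF6 at -147, -135 and -197 from the start. Positions are counted from each gene's own start, which lay farther from the shared bases in Serpina1e. The C/EBP match lay at 24 after the start in Serpina1a and at -90 in Serpina12. As the paralog windows are alike, their matches are not independent, and the counts cannot be read as enrichment over other promoters. These are letter matches in the windows only.

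Serpina12, the vaspin gene, was low in all chow MCOPPB livers and in no other liver. It had 71.8, 164, 77.1, 105 and 64.3 normalized counts in the chow MCOPPB livers, against 397, 916 and 1282 in the chow saline livers. The highest chow MCOPPB liver was under the lowest chow saline liver. The means were 96.4 ± 40.9 (SD, n = 5) with MCOPPB and 865 ± 445 (n = 3) with saline, 8.97-fold apart. The log2 difference was -2.36 ± 0.40 (limma adjusted p = 0.00899). The call was lost without chow saline 2 (limma adjusted p = 0.066), without chow saline 3 (0.0899) and with the first RIN value as a covariate (0.071), where the difference was -2.83. It was also lost with the replicate block (-2.20, adjusted p = 0.110).

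Under DEN/HFD, Serpina12 had 577, 348 and 998 normalized counts with MCOPPB, against 1619.5, 393, 606 and 429.5 with saline. The groups overlapped, and the log2 difference was -0.12 ± 0.42 (95% interval -0.99 to 0.76, limma adjusted p = 1.00). The test of the difference between both MCOPPB differences gave 2.24 ± 0.58 for this gene, with a limma adjusted p of 0.347, so it was not called. In MCOPPB livers, Serpina12 averaged 641 ± 329 normalized counts under DEN/HFD (SD, n = 3) and 96.4 ± 40.9 on chow (n = 5), 6.65-fold apart, without overlap. The log2 difference of 1.99 ± 0.40 was called higher (limma adjusted p = 0.0268), the only call among the 10 genes in that comparison, in which 0.571% of all genes were called (0.225% higher) and groups did not overlap for 9.31% (4.63% higher). Leaving out DEN/HFD MCOPPB 3 (limma adjusted p = 0.208), DEN/HFD MCOPPB 1 (0.0919) or chow MCOPPB 1, 3 or 5 (0.0645 to 0.0661) ended that call. So did the first RIN value (0.273), the second (0.065), no filter (0.0587) and the replicate block (0.208). In saline livers, Serpina12 did not pass the test between DEN/HFD and chow (-0.25 ± 0.42, limma adjusted p = 0.878).

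As vaspin is also made by fat cells, adipocyte markers were read beside it. Adipoq, the adiponectin gene, had 6.75, 0, 44.2, 12.2 and 3.05 normalized counts in the chow MCOPPB livers, against 14.2, 0 and 147 in the chow saline livers. Chow saline 2 had 916 normalized counts of Serpina12 while Adipoq, Plin1 and Lep, defining genes of fat cells, were all at the lowest value in it. Chow saline 3, with the most Serpina12 among chow livers (1282 normalized counts), had the most Adipoq of all 15 livers and also the most Plin1 (48.3) and Lep (22.6). In the 4 DEN/HFD saline livers Adipoq was at the lowest value throughout, with Serpina12 at 393 to 1619.5. Over all 7 adipocyte markers the summed level was 21836 to 52132 normalized counts in chow MCOPPB and 31416 to 48076 in chow saline, most of it from Car3, which hepatocytes also make. Adipoq, Plin1 and Lep did not pass the filter on low values, so they were not tested. The 3 adipocyte markers kept by the filter came from the rest of the list, Cfd, Car3, Retn and Lipe. These 3 had a median difference of -0.61 on chow, 1 with an unadjusted limma p under 0.05 and none called. The part of fat cells in the Serpina12 result was not tested. The known target Klk7 stayed at or under 2.51 normalized counts in every library.

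Serpina4-ps1, the pseudogene, was at or near the lowest value in most MCOPPB livers. It had 0.75, 2.31, 0, 17 and 0 normalized counts in the chow MCOPPB livers, against 98.6, 529.9 and 103 in the chow saline livers. Chow saline 2 was the highest of all 15 livers, and no chow MCOPPB liver came near the saline range. The means were 4.00 ± 7.30 (SD, n = 5) with MCOPPB and 244 ± 248 (n = 3) with saline. The deposited scale compresses such low values: the log2 difference was -2.31 ± 0.36 there (limma adjusted p = 0.00434) and -6.12 as log2(normalized count + 1), a value that depends on the added constant.

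Under DEN/HFD, Serpina4-ps1 had 6.36, 4.2 and 0 normalized counts with MCOPPB, against 3.98, 24.6, 18 and 61.5 with saline. Only 1 saline liver lay within the MCOPPB range, and the log2 difference of -0.67 ± 0.37 was not called (limma adjusted p = 1.00). Between saline livers it was lower under DEN/HFD, 27.0 ± 24.5 (SD, n = 4), than on chow, 244 ± 248 (n = 3), without overlap. That log2 difference was -1.60 ± 0.37 and was not called (limma adjusted p = 0.166), in a comparison where 0.0519% of all genes were called and groups did not overlap for 9.09% (4.36% lower). It was called without DEN/HFD saline 4 (adjusted p = 0.0499), and without chow saline 2 it was -1.0. The common MCOPPB effect was -1.53 ± 0.32 and was called lower (limma adjusted p = 0.0367), but the call was lost without any 1 of chow MCOPPB 1, 2, 3 and 5, chow saline 1 and 3, DEN/HFD MCOPPB 3 and DEN/HFD saline 2 and 4 (adjusted p = 0.0507 to 0.09). It was also lost with the first RIN value (0.339), the second (0.289), the replicate block (0.110) and no filter (0.0992).

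Serpina3k, known in mouse and rat as a kallikrein-binding protein, was the most abundant gene outside the Serpina1 family. It had 35903, 79833, 36040.4, 36735 and 22829.9 normalized counts in the chow MCOPPB livers, against 149442, 74706 and 76719.9 in the chow saline livers. Only chow MCOPPB 2 reached the saline range. The log2 difference was -1.29 ± 0.45 (limma adjusted p = 0.363) and was not called. Under DEN/HFD it had 38147, 15426 and 18645 normalized counts with MCOPPB, against 26766, 28869, 35683 and 103279 with saline, and the difference of -0.88 ± 0.47 was not called (limma adjusted p = 1.00) and was -0.44 without DEN/HFD saline 4 and -0.57 under quantile normalization. The common DEN/HFD difference from chow was -0.99 ± 0.32, which was called without DEN/HFD saline 4 (limma adjusted p = 0.0282) but not with all livers (0.125). None of the 10 genes was called by limma for this common DEN/HFD effect, where 1.32% of all genes were, and 4 of the 10 had an unadjusted p under 0.05, as did 16.7% of all genes.

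Serpina3m had its highest values in chow MCOPPB livers. It had 3481, 3699, 4533, 1036 and 2773 normalized counts there, against 2871, 575 and 1868 in chow saline livers, with overlap, and the log2 difference of 0.88 ± 0.46 was not called (limma adjusted p = 0.608) and was 0.26 without chow saline 2, 1.34 without chow saline 1 and 1.93 with the first RIN value. Under DEN/HFD the levels were 1442, 1015 and 956 with MCOPPB, against 797, 965, 1438 and 2025 with saline (difference -0.12 ± 0.48, limma adjusted p = 1.00). Serpina3k and Serpina3m were 92.6% identical in coding sequence, and 92.6% and 90.3% of their 75-base windows were found in no other gene. Their loops, 75 coding bases from the hinge onward on the plus strand (GENCODE M21, GRCm38), are shown because they carry the bait and differ between these 2 genes. Capitals are not used here, since the bases differ throughout the second part of the stretch.
Serpina3k (chr12:104345269-104345343): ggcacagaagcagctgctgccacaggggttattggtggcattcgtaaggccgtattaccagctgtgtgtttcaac
Serpina3m (chr12:104393769-104393843): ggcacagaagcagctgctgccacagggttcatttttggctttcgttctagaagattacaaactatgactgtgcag

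Serpina6, the corticosteroid-binding globulin gene, had 7445, 5741, 5589, 11303 and 10586 normalized counts in the chow MCOPPB livers, against 3276, 6403 and 3753 in the chow saline livers. Of the 5 chow MCOPPB livers 3 were above every chow saline liver, and 2 were not. The means were 8133 ± 2680 (SD, n = 5) with MCOPPB and 4477 ± 1685 (n = 3) with saline. The log2 difference was 0.85 ± 0.31 (limma adjusted p = 0.402) and was not called. Under DEN/HFD it had 3521, 7529 and 4342 normalized counts with MCOPPB, against 6381, 6153, 3542 and 5478 with saline, a difference of -0.11 ± 0.33 (limma adjusted p = 1.00). Among 19 tested glucocorticoid-responsive genes, none was called by limma for MCOPPB on chow or under DEN/HFD. An unadjusted limma p under 0.05 was found for 4 and 3 of them, and for 9.06% and 4.74% of all genes. Of the 19 differences 16 were positive on chow (median 0.20) and 10 under DEN/HFD (median 0.01). The receptor gene Nr3c1 had a difference of 0.31 ± 0.25 on chow (limma adjusted p = 0.762).

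Under DEN/HFD none of the 10 genes was called by limma for MCOPPB, beside 0.0259% of all genes, and Serpina1e was the only 1 with an unadjusted p under 0.05, as had 4.74% of all genes. None of the 10 had groups that did not overlap, beside 6.96% of all genes. All 10 differences were negative there, with a median of -0.49 beside a median of 0.00 over all genes, but those of Serpina1a, Serpina1b and Serpina6 were positive under quantile normalization. None was called by limma for the difference between both MCOPPB differences, for which 0.0692% of all genes were called, and Serpina12, Serpina4-ps1 and Serpina6 had an unadjusted p under 0.05, as had 5.9% of all genes. DEN/HFD against chow with saline also gave no limma call, and Serpina4-ps1 and Serpina3k had an unadjusted p under 0.05, as had 11% of all genes. Along the chromosome the widest differences on chow fell on Serpina1e, Serpina12 and Serpina4-ps1, which follow each other among these 10 genes. Serpina11, a protein-coding serpin gene between Serpina1e and Serpina12, had a mean of 296 normalized counts with MCOPPB and 428 with saline on chow (log2 difference -0.45 ± 0.16, limma adjusted p = 0.401), without overlap.

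**Figure D4:**
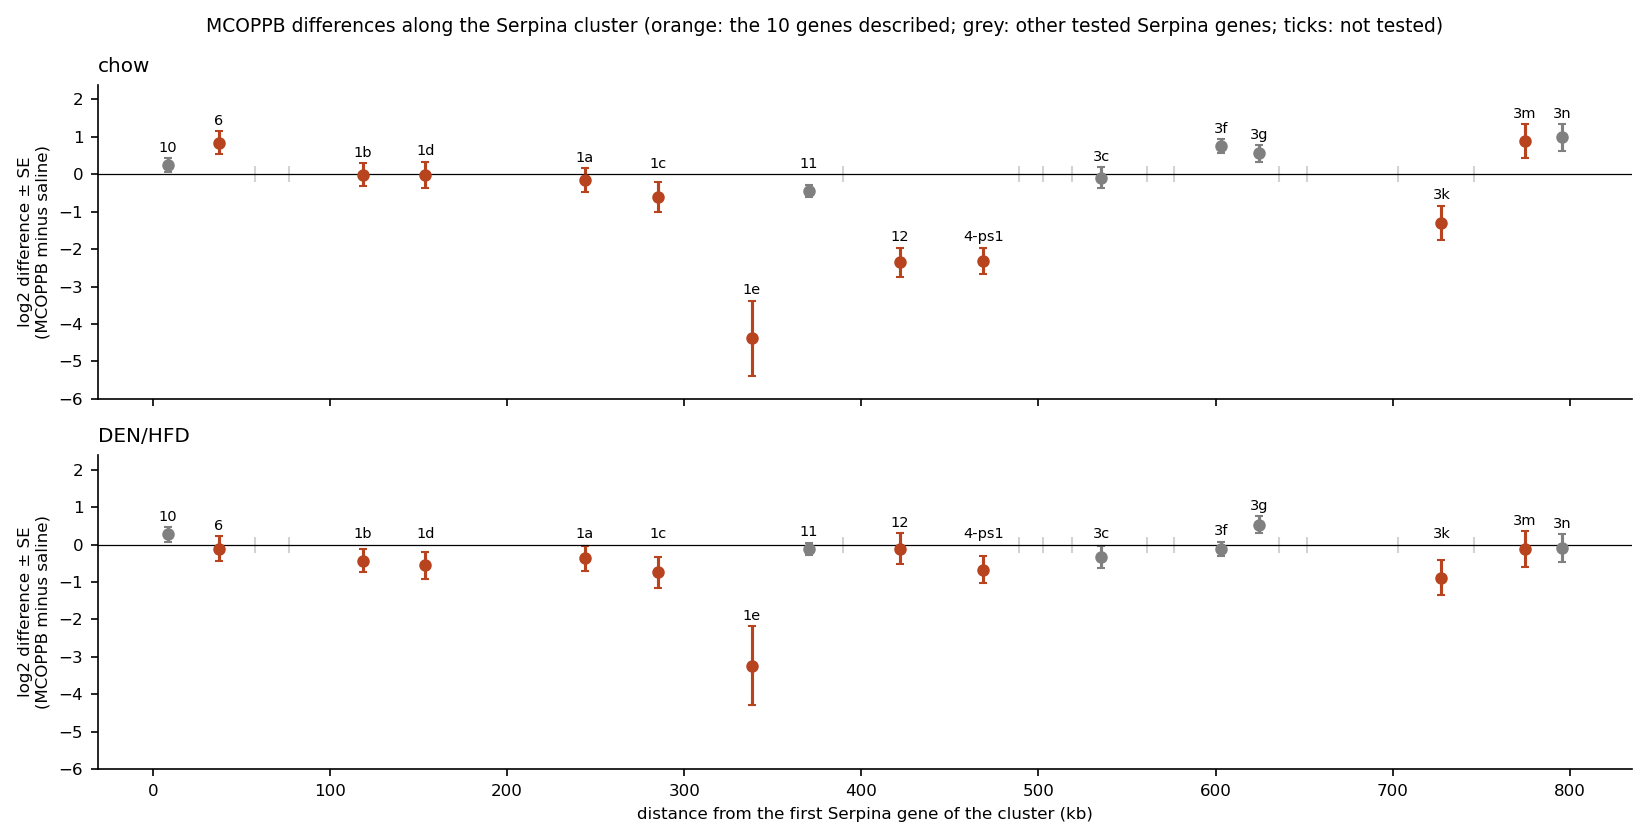
Log2 difference ± SE between MCOPPB and saline livers (vertical axis, deposited log2 scale) along the Serpina cluster, by distance in kb from its first gene, on chow (top) and under DEN/HFD (bottom). Orange points are the 10 genes described, grey points 6 other tested Serpina genes of the cluster and ticks genes not tested; Serpina1e, Serpina12 and Serpina4-ps1 lie lowest on chow.

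Other Serpina genes gave no call. Of 16 listed, 7 were tested, and limma called none in any of the 7 comparisons, with 4 at an unadjusted p under 0.05 for MCOPPB on chow and 1 under DEN/HFD. Of all genes, 9.06% and 4.74% had such a limma p. Of the 7 differences 4 were positive on chow and 2 under DEN/HFD. Serpina3n, an acute phase serpin of mouse liver, averaged 5176 normalized counts in chow MCOPPB and 2196 in chow saline (log2 difference 0.99 ± 0.36, limma adjusted p = 0.401). Serpina3f averaged 15.9 normalized counts in chow MCOPPB and 0.353 in chow saline, without overlap (0.76 ± 0.19, limma adjusted p = 0.124). As no chow saline liver reached the filter's level for Serpina3f, it was kept only through other groups, and its difference is a description. Of 13 tested serpins of other clades, none was called by limma in any comparison, and 2 had an unadjusted p under 0.05 for MCOPPB on chow. Of 18 tested target proteases of serpins, none was called for MCOPPB on chow or under DEN/HFD (2 and 1 at an unadjusted limma p under 0.05). Elane, the neutrophil elastase gene, was at or under 5.69 normalized counts in every library. F7, the coagulation factor VII gene, was the one called protease gene, lower in DEN/HFD MCOPPB than in chow MCOPPB (298 and 696 normalized counts, log2 difference -1.03 ± 0.22, limma adjusted p = 0.0352).

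Genes that fold and export these proteins gave no call for MCOPPB. Of 36 tested genes of the secretory pathway and its quality control, 2 on chow and 0 under DEN/HFD had an unadjusted limma p under 0.05. Lman1, a cargo receptor that carries alpha-1-antitrypsin out of the endoplasmic reticulum, had a difference of 0.31 ± 0.23 on chow (limma adjusted p = 0.738). Sec24d, a coat subunit of vesicles leaving that compartment, was called higher in DEN/HFD MCOPPB than in chow MCOPPB (0.88 ± 0.18, limma adjusted p = 0.0352). Of 25 tested transcription factors of hepatocytes, none was called by limma for MCOPPB on chow or under DEN/HFD (1 and 2 at an unadjusted p under 0.05), including Hnf4a (0.04 ± 0.19 on chow) and Cebpa (0.11 ± 0.23). Tef, a PAR bZIP factor with a daily rhythm, was called lower in DEN/HFD MCOPPB than in chow MCOPPB (-1.43 ± 0.26, limma adjusted p = 0.0179). Of 29 tested acute phase genes, none was called by limma for MCOPPB on chow or under DEN/HFD. On chow 22 of the 29 differences were positive, with a median of 0.42 beside 0.00 over all genes. An unadjusted limma p under 0.05 was found there for 6 of them, and for 9.06% of all genes. Under DEN/HFD 16 were positive, with a median of 0.04. There 1 had an unadjusted limma p under 0.05, as had 4.74% of all genes.

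Genes with known sex bias in mouse liver were read beside these results, from lists chosen with the direction in these data already known, so that they are no independent evidence. Of 37 tested male-biased genes, 15 were called lower and none higher for MCOPPB on chow, where 0.164% of all genes were called lower, and the median difference was -1.62. Elovl3, Mup20, Cyp4a12b and Mup21 had the smallest p among them. Under DEN/HFD limma called none of the 37 for MCOPPB, with a median of -1.12 and 27 at an unadjusted p under 0.05. Of 30 tested female-biased genes, 11 were called higher for MCOPPB on chow, where 0.32% of all genes were called in either direction, and the median was 1.15. Under DEN/HFD 1 of the 30, Cyp17a1, was called higher, with a median of 0.41. Of 18 tested genes of the growth hormone axis, which sets this bias, none was called by limma for MCOPPB on chow, and 5 had an unadjusted p under 0.05, beside 9.06% of all genes. Cux2, a female-biased repressor, averaged 82.1 normalized counts with MCOPPB and 0.294 with saline (1.35 ± 0.41, limma adjusted p = 0.248). No chow saline liver reached the filter's level for Cux2, so it was kept only through other groups and its difference is a description. Bcl6, a male-biased repressor, averaged 171 with MCOPPB and 367 with saline (-0.87 ± 0.48, limma adjusted p = 0.636).

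Across the 15 livers the 10 genes fell into different patterns, described here by Pearson correlations of log2 levels over libraries that share groups and scaling. Serpina1a, Serpina1b, Serpina1c and Serpina1d varied together, with r of 0.85 to 0.97. Serpina1e was closer to Serpina3k (0.81) and Serpina1c (0.79) than to Serpina1b (0.55) or Serpina1d (0.51). Serpina12 was negatively correlated with Serpina3m (-0.65) and Serpina6 (-0.57), but within groups, after subtracting group means, those values were -0.35 and -0.05. Serpina1e and Serpina3k had an r of 0.85 within groups. Serpina3m and Serpina6 had an r of -0.74 within groups and -0.08 over all 15 livers.

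**Figure D5:**
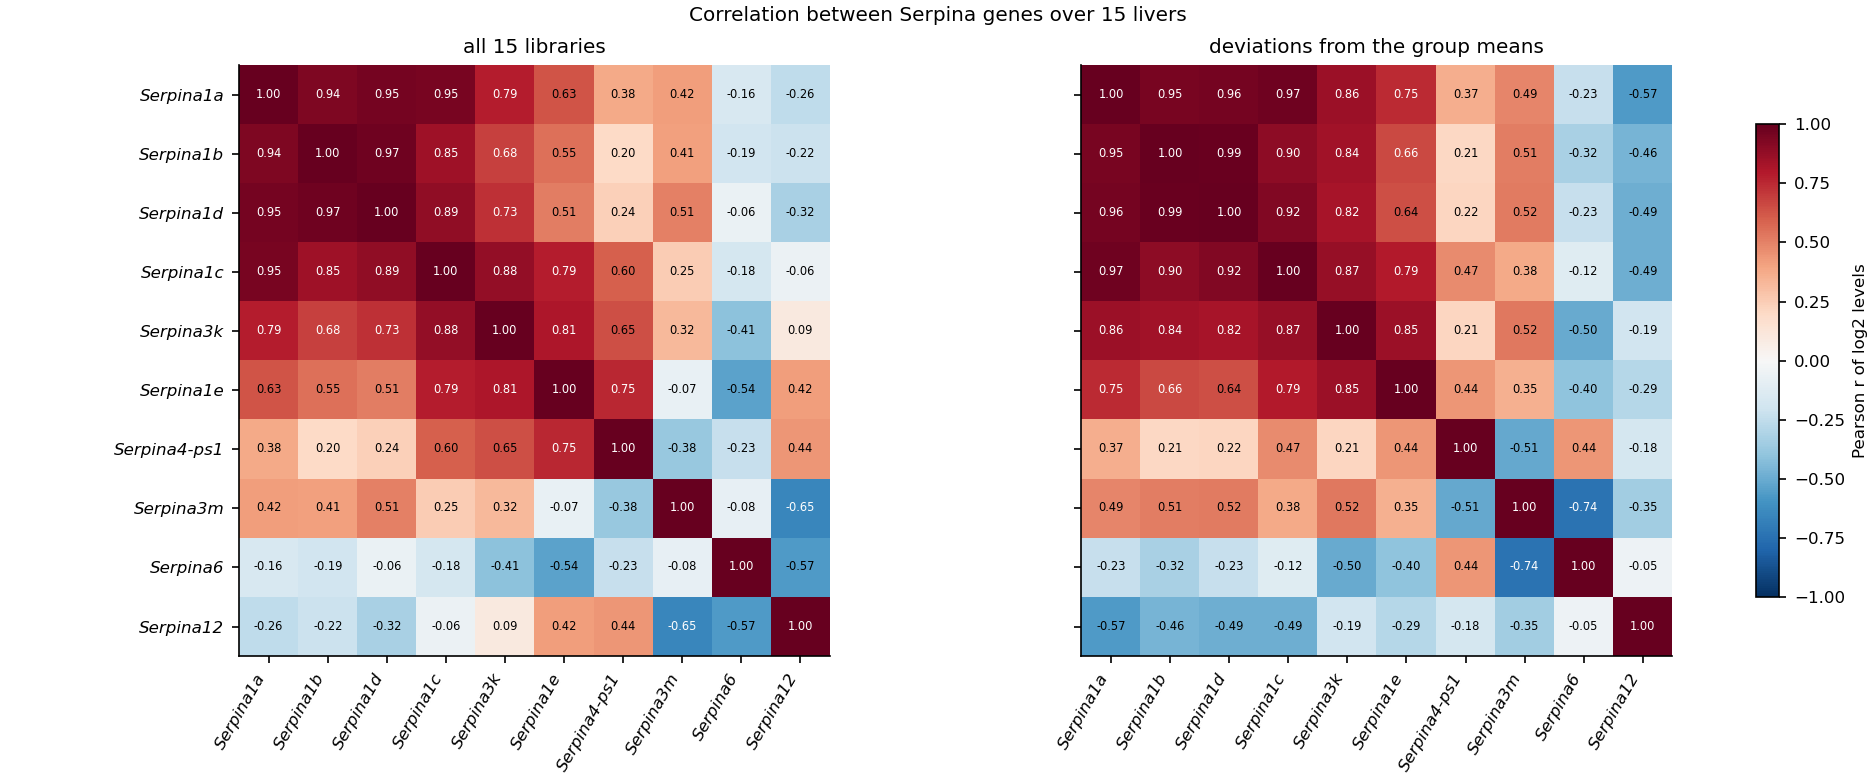
Pearson r between log2 levels of the 10 Serpina genes over all 15 libraries (left) and of their deviations from the group means (right); red is positive and blue negative. Serpina1a, Serpina1b, Serpina1c and Serpina1d form a block with r of 0.85 to 0.97, and Serpina12 and Serpina6 stand apart.

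The genes outside this set with the most similar profiles were found over the same 15 livers. For Serpina1e they were Mup1, a major urinary protein gene (r = 0.93, within groups 0.87), and Cyp2d9 (0.92, within groups 0.80), a cytochrome P450. Mup1 had 1910.3, 1635, 1516, 1077 and 701 normalized counts in chow MCOPPB, against 7774, 9590.3 and 9676 in chow saline. Under DEN/HFD it had 2120, 294 and 688 normalized counts with MCOPPB, against 2126, 5390, 4492 and 120540 with saline, so the highest liver was the same DEN/HFD saline 4. For Serpina3k they were Egfr, the epidermal growth factor receptor gene (r = 0.93), and AC127342.1 (0.92), and for Serpina3m they were Hspd1, a mitochondrial chaperonin (0.98), and Apom, an apolipoprotein gene (0.97). Serpina12 was most like Mup20 (0.88) over all livers, but only at 0.41 within groups, and like F2r, a thrombin receptor gene (0.86, within groups 0.63). For Serpina6 they were 0610005C13Rik (0.85) and Cyp2a5 (0.84). Cyp2e1 was among the closest for Serpina1a (0.86), Serpina1b (0.89) and Serpina1d (0.89), beside Casd1 for Serpina1a (0.87), Ppm1k for Serpina1b (0.87) and Ugt2a3 for Serpina1d (0.90). For Serpina1c they were Il1rap (0.90) and Tprkb (0.89). For Serpina4-ps1 the closest were Gm48309 (0.91) and Gm44578 (0.89), predicted genes with no described role.

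These are levels of transcripts in whole liver, in which fewer cells of a type and less RNA per cell cannot be told apart.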

How the data were processed

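The submitters' processing notes name STAR 2.7.0e, Trimmomatic, HTSeq and DESeq2 and the build GRCm38 (mm10), with no settings. The kit was strand-specific, the input 250 ng and each read a single 75 nt, per the labels' protocols. The authors deposited variance-stabilised values on a log2 scale for 54281 gene IDs in 15 libraries, with a shared lowest value of 5.49 that stands for 0 reads. The scale was inverted to normalized counts. Where a library's inverted values came to under 20 reads, 15.1% to 45.1% were whole (within 0.01 read), so reads were not recovered, depth is an estimate, no count test was run and no counting interval is given. Gene names were found for 54107 IDs in GENCODE M21.

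Genes at least 1 (log2) above the lowest value, 22.5 normalized counts, in at least 3 libraries were kept (11568). Limma 3.58.1 in R 4.3.3 fitted 4 group means to all 15 libraries (eBayes with a mean trend, 11 residual degrees of freedom), and additive models gave the common MCOPPB and DEN/HFD effects. The 7 comparisons were two-sided, with Benjamini-Hochberg adjustment over the kept genes. Replicates are separate animals per the labels. Groups came from the sample titles and sources. Equal replicate numbers did not pair libraries: 5 of 19 such pairs had residual correlations over 0.1. No 2 libraries were identical. Sequence comparisons used Python 3.11.15 and Biopython 1.88. The script was tested on simulated data.

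The members and gene lists were chosen with earlier results of these data known. Named genes were the 10 members, up to 4 called genes with the smallest p per list, genes that the members' known biology turns on, and for each member the 2 genes with the highest correlation. Serpina11, Serpina3n, Serpina3f, Adipoq, Plin1 and Lep were named after their values were seen. Alternatives were no filter, other pseudocounts (1 and 10) on normalized counts, quantile normalization, either RIN value as a covariate (the second added after seeing the data), a replicate block, only the groups compared, summed Serpina1 genes and each library left out. Some genes that the rule names are not reported here.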

Additional observations from a re-analysis of the deposited data

Results flagged for a closer look

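Chow MCOPPB 2 lay far from the other 4 chow MCOPPB livers for 2 of the Serpina1 paralogs. Its Serpina1a level was 16.5 on the deposited log2 scale (92703 normalized counts), while the other 4 lay between 15.79 and 15.93. Its Serpina1c level was 17.4 (172776 normalized counts), while the other 4 lay between 16.49 and 16.73. In both cases the gap to the nearest liver, divided by the range of the group, passed Dixon's 95% critical value for 5 samples (0.71), with 0.795 for Serpina1a and 0.741 for Serpina1c. The rule was run on each gene described here, in chow MCOPPB and in DEN/HFD saline. Chance flags about 1 in 20 groups, and these paralogs share sequence, so the flags are not independent. As a share of all normalized counts of the library, Serpina1a was 0.555% in chow MCOPPB 2 and 0.369% to 0.485% in the other 4. Serpina1c was 1.03% in it and 0.681% to 0.795% in the other 4. The flags hold for the deposited log2 levels only. The cause was not tested.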

How the results depend on the processing

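Over 70 member differences (10 genes, 7 comparisons) and 1615 alternative values, 1513 kept their sign and side of the threshold. A call was lost in 35 and gained in 6, and 61 changed sign, none of them called either way. The summed Serpina1 genes are counted here as an alternative of each paralog, though the sum is a different feature. Counts of called members in this section include Serpina4-ps1, which had to differ to be tested. The replicate block left 1 member called on chow, Serpina4-ps1, and Serpina12 was lost there (-2.20, limma adjusted p = 0.110). The block left 0 members called for DEN/HFD against chow with MCOPPB and 0 for the common MCOPPB effect. It changed no other call of a member. The first RIN value left 1, 0 and 0 in the same comparisons, no filter 0 in the last 2, and the second RIN value 0 in the last 2. For MCOPPB on chow 37 genes were called, but 15 with the first RIN value and 23 with the block. Under DEN/HFD 3 were called, but 6 without a filter, 9 with only the groups compared and 0 with quantile normalization, the block or the second RIN value. For DEN/HFD against chow with saline 6 were called, but 3 with log2(count + 10) and 1 with the first RIN value. With MCOPPB 66 were called, but 0 with the first RIN value, 34 with the second, 16 with the block and 135 with only the groups compared. For the difference of MCOPPB effects 8 were called, but 4 with either pseudocount, 3 with the first RIN value and 2 with no filter, the block or the second RIN value. For common MCOPPB 43 were called, but 25 without a filter, 3 with the first RIN value and 8 with the second. For common DEN/HFD 153 were called, but 56 without a filter, 0 with the first RIN value, 81 with the second and 69 with the block. Leaving out 1 library gave 16 to 51 genes (1 to 3 members), 0 to 6, 1 to 52 (0 to 1 member), 18 to 157 (0 to 1), 2 to 12, 25 to 42 (0 to 2) and 6 to 459 (0 to 1) in the same order. Sign changes with quantile normalization were Serpina1a 0.29, Serpina1b 0.52 and Serpina1d 0.18 on chow; Serpina1a 0.0079, Serpina1b 0.27 and Serpina6 0.0063 under DEN/HFD; Serpina1e 0.039 between diets with MCOPPB; Serpina1a 0.16 and Serpina1b 0.40 for common MCOPPB; and Serpina1b 0.044 for common DEN/HFD. With the first RIN value they were Serpina1a 0.037, Serpina1b 0.16 and Serpina1d 0.18 on chow, Serpina3m 0.092 under DEN/HFD, Serpina12 0.0052 between diets with saline and Serpina6 0.37 for common DEN/HFD. With the second they were Serpina1b 0.0033 and Serpina1d 0.0098 on chow and Serpina1e 0.31 between diets with MCOPPB. With the block they were Serpina6 0.0082 under DEN/HFD, Serpina1e 0.33 between diets with MCOPPB and Serpina1c 0.23 for the difference of effects. The summed Serpina1 genes gave -0.13 in place of Serpina1b between diets with saline and -0.27 in place of Serpina1e for the difference of effects. Leaving out a library gave, on chow, Serpina1a -0.36 to 0.086, Serpina1b -0.18 to 0.24 and Serpina1d -0.21 to 0.29. Under DEN/HFD it gave Serpina3m -0.32 to 0.10, Serpina6 -0.42 to 0.12 and Serpina12 -0.45 to 0.29. Between diets with saline it gave Serpina1a -0.41 to 0.13, Serpina1b -0.086 to 0.38, Serpina1d -0.35 to 0.27, Serpina3m -0.87 to 0.21 and Serpina12 -0.67 to 0.079. With MCOPPB it gave Serpina1e -1.18 to 0.91 and Serpina4-ps1 -0.057 to 0.21. For the difference of effects it gave Serpina1a -0.46 to 0.081, Serpina1c -0.42 to 0.32 and Serpina1e -0.032 to 2.26. The causes were not tested. Depth limits Serpina4-ps1 most, as several livers had under 10 normalized counts.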
